A study of Homo sapiens with 4 samples.

Results

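The genes that carry peptides to the cell surface on major histocompatibility complex (MHC) class I molecules were followed in RCC4 cells, an established human line of clear cell renal cell carcinoma (ccRCC), after silencing of PML. The set was fixed by name and held 9 of the 59050 genes of the count table. These were HLA-B, HLA-C, HLA-E, HLA-F, B2M, TAP1, TAP2, TAPBP and PSMB9. All 9 passed the filter on low counts. The cells carried a lentiviral, doxycycline-inducible short hairpin RNA against PML (shPML) or a scramble hairpin (shCtrl), and both groups received doxycycline (100 ng/ml) over 96 h in tetracycline-free serum. Transduced cells were kept as bulk populations under puromycin, not as clones, and a single hairpin against PML was sequenced. Each group held 2 libraries, numbered replicates 1 and 2, which are read here as the experiments with separate lentiviral infections that the methods describe.

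MHC class I molecules show short peptides from inside the cell to CD8 T cells. The proteasome cuts proteins into peptides, the TAP1-TAP2 transporter moves these into the endoplasmic reticulum, and tapasin (TAPBP) holds empty class I molecules next to the transporter until a peptide is bound. The heavy chain, encoded by an HLA gene, then leaves for the cell surface together with β2-microglobulin (B2M). Interferons raise many genes of this pathway in most cell types. PML, the scaffold of PML nuclear bodies, is itself induced by interferon.

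According to the coordinates of the count table (GRCh38), 8 of the 9 genes lie in the MHC region of chromosome 6 and B2M lies on chromosome 15, from 44711487 to 44718877. TAP1 (chromosome 6, 32845209 to 32853978, minus strand) and PSMB9 (32844136 to 32859851, plus strand) are read in opposite directions, and the annotated span of PSMB9 encloses TAP1 without a shared exon base. In the RefSeq promoter set (GRCh38.p14), which held windows for 8 of the 9 genes and none for HLA-E, their start sites lie 488 bases apart, at 32853704 for TAP1 and 32854192 for PSMB9. The set lists a second TAP1 start at 32852761, farther from PSMB9, whose window holds neither of the words below. Each window runs from 250 bases before to 50 bases after a start site. The windows of this divergent pair are shown because the 2 genes behaved differently, and those of B2M and HLA-B because both genes were higher in shPML. Capitals mark matches, on either strand, to the core of the interferon-stimulated response element (ISRE, GAAA, any 2 bases and GAAA again) and to an NF-κB word (GGGA, any 4 bases and CC), and neighbouring matches may overlap.
TAP1, chr6:32853655-32853954, minus strand: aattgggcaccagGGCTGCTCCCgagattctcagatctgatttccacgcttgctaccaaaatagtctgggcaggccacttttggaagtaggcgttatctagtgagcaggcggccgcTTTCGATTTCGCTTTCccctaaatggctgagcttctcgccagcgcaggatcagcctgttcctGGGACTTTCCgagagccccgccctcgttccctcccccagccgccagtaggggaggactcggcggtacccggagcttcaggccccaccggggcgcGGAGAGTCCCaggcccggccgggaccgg
PSMB9, chr6:32853942-32854241, plus strand: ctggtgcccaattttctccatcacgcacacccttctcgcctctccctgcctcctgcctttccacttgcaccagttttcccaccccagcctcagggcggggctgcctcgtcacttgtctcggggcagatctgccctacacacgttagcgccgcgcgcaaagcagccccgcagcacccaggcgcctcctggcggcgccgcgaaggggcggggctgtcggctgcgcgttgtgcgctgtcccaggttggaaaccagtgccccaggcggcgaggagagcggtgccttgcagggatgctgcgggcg
B2M, chr15:44711267-44711566, plus strand: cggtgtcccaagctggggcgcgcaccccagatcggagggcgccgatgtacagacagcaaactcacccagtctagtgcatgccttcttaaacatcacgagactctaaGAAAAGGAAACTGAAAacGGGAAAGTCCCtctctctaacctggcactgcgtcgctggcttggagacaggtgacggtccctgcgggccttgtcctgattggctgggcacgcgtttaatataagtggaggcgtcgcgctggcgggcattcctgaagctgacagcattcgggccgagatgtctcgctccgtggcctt
HLA-B, chr6:31357130-31357429, minus strand: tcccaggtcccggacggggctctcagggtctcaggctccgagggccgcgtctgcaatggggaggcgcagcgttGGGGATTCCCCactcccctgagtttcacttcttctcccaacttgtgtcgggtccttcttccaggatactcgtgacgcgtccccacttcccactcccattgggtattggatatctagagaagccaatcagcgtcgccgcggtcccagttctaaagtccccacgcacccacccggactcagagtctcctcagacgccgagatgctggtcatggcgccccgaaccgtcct
The TAP1 window shown holds 2 overlapping ISRE matches, from 134 to 119 bases before the start, and 3 NF-κB matches. The B2M window holds 2 ISRE and 2 NF-κB matches, the HLA-B window 2 overlapping NF-κB matches and no ISRE match, and the PSMB9 window neither word. The PSMB9 window reaches only 250 bases before its start and shares 13 bases with the TAP1 window shown. The ISRE matches of TAP1 lie between the 2 start sites, outside the PSMB9 window. The absence of the words from that window is therefore no difference between the promoters of the pair. An ISRE match was present in 5 of the 8 genes with a window (HLA-F, TAP1, TAP2, TAPBP and B2M) and in 3.57% of all 35116 windows of the set. The NF-κB word was present in 5 of the 8 genes (HLA-B, HLA-C, TAP1, TAPBP and B2M) and in 25.6% of all windows. The counts of genes take TAP1 once over its 2 windows, while the shares count single windows. Only the exact words were searched, so a window without a match may still hold a variant of either element. A match describes the letters of the window and says nothing of binding in RCC4 cells.

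Between 27781193 and 69870617 reads were assigned to genes per library. PML was lower in shPML within both experiments (log2 ratios of -0.76 and -0.63), and its log2 fold change was -0.69 (adjusted p = 0.32) in edgeR without and -0.70 (adjusted p = 4.2e-07) with the replicate block. Leaving out 1 library moved the unblocked value of PML to -0.40 without shCtrl replicate 2 or shPML replicate 1, and to -1.06 without shPML replicate 2. All 10 renal and ccRCC markers passed the filter, with PAX8 between 302 and 427 CPM (counts scaled to a common library size, with TMM factors). The library labelled shPML replicate 2 stood apart from the other 3. The 9 leukocyte markers summed to 149 CPM in it, against 0.111 and 0.139 CPM in the shCtrl libraries and 0.181 CPM in shPML replicate 1. Of these markers, LYZ (2349 reads), CD14 (1177), PTPRC (346) and NKG7 (219) were read in that library, while the T and B cell markers CD3D, CD3E, CD8A and MS4A1 had 0 reads in every library. The endothelial markers CDH5 and VWF were at or under 0.389 CPM in every library, and PECAM1, which leukocytes also express, reached 4.11 CPM in shPML replicate 2 and 0.0418 CPM or less elsewhere. By a rule added after the data were seen, 77 genes exceeded 5 CPM in shPML replicate 2 and stayed under 0.5 CPM in each other library, and 0 genes did so for any of the other 3 libraries. Leukocytes carry abundant MHC class I RNA, so the values of each gene are given for every library and within each replicate. In bulk RNA, a change in the number of cells of a type and a change in RNA per cell cannot be told apart, in shPML replicate 2 or elsewhere.

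**Figure D1:**
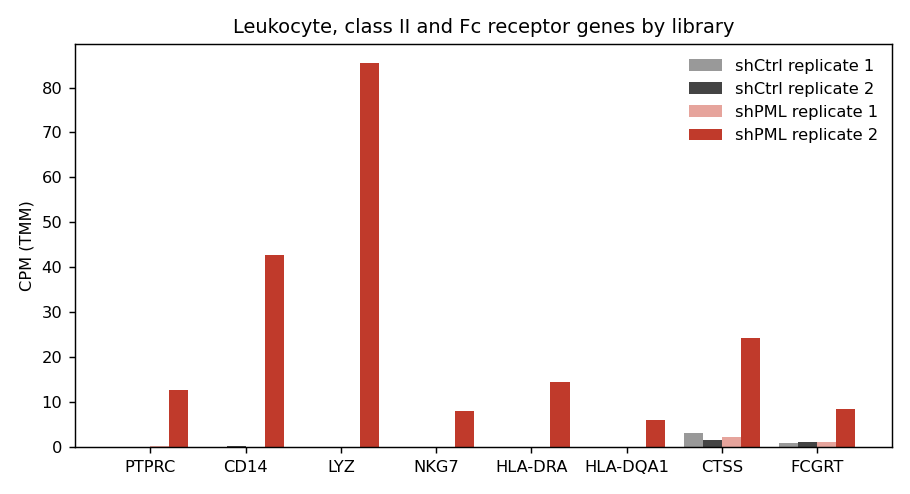
CPM (vertical axis) of 4 leukocyte markers, of the class II genes HLA-DRA and HLA-DQA1, of the protease gene CTSS and of the Fc receptor gene FCGRT, with 1 bar for each of the 4 libraries. The bars of shPML replicate 2 reach 85.4 CPM for LYZ and 42.8 CPM for CD14, while CTSS is the only gene shown that exceeds 2 CPM in any other library.

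TAP1, which encodes a chain of the peptide transporter, showed the largest log2 fold change of the 9 genes. Its level was 104 and 101 CPM in shCtrl replicates 1 and 2 and 42.9 and 45.1 CPM in shPML replicates 1 and 2. The groups did not overlap, and shCtrl was 2.42-fold above shPML in replicate 1 and 2.24-fold in replicate 2. Condition accounted for 99.8% of the variance of its log2 level over the 4 libraries, and the experiment for 0.0118%. The log2 fold change was -1.22 ± 0.15 (SE) and missed the threshold without a replicate block, with an adjusted p of 0.052 from the edgeR quasi-likelihood test. With the replicate number as a block TAP1 fell by 1.22 ± 0.11 (log2 scale, SE, adjusted p = 1.5e-13 in the same test). In replicate 1 alone 3.99% of the genes tested had a ratio as low as that of TAP1 or lower, and in replicate 2 this share was 7.60%. The value changed little without the library that held leukocyte markers (-1.25, adjusted p = 0.18 in the edgeR fit of the other 3 libraries).

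TAP2, the partner chain of TAP1, moved less. It was at 33.6 and 31.2 CPM in shCtrl and at 29.5 and 24.0 CPM in shPML (replicates 1 and 2), so the shPML libraries were the 2 lowest, by a small margin. Its log2 fold change was -0.28 ± 0.18 (SE, edgeR adjusted p of 0.50, or 0.084 under the block), and it passed in neither fit. Without shPML replicate 2 the unblocked value was -0.14, and without shPML replicate 1 it was -0.44. Calculated per kilobase of gene length, TAP1 outnumbered TAP2 by 6.44 and 6.74 to 1 in shCtrl and by 3.04 and 3.91 to 1 in shPML. The groups did not overlap in this ratio either, but with 2 libraries a group an exact two-sided permutation test cannot give a p under 0.333.

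PSMB9 encodes the immunoproteasome subunit that replaces PSMB6 in the catalytic core. Although its start site faces that of TAP1, its level stayed between 19.3 and 22.4 CPM in all libraries, with 21.1 and 20.9 CPM in shCtrl and 22.4 and 19.3 CPM in shPML. The groups overlapped, and the log2 fold change was -0.01 ± 0.17 (SE, adjusted p = 0.98, edgeR without the block). The standard error leaves room for a modest difference in either direction. The per-length ratio of TAP1 to PSMB9 was 1.92 and 1.89 in shCtrl and 0.749 and 0.912 in shPML, so PSMB9 RNA exceeded TAP1 RNA in both shPML libraries and in neither shCtrl library.

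TAPBP, the gene of tapasin, followed the experiment more than the condition. It was at 258 and 480 CPM in shCtrl and at 320 and 614 CPM in shPML, and the experiment accounted for 88.2% of its variance. Within the replicates shPML was above shCtrl by 1.24-fold and 1.28-fold, an almost equal step. The log2 fold change was 0.34 ± 0.42 without the block (SE, adjusted p = 0.76, edgeR) and 0.33 ± 0.09 with it (SE, adjusted p = 0.0042), under the fold threshold of 0.5. The unblocked value ran from -0.20 without shPML replicate 2 to 0.85 without shCtrl replicate 2, and it was also negative (-0.03) without shCtrl replicate 1.

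**Figure D2:**
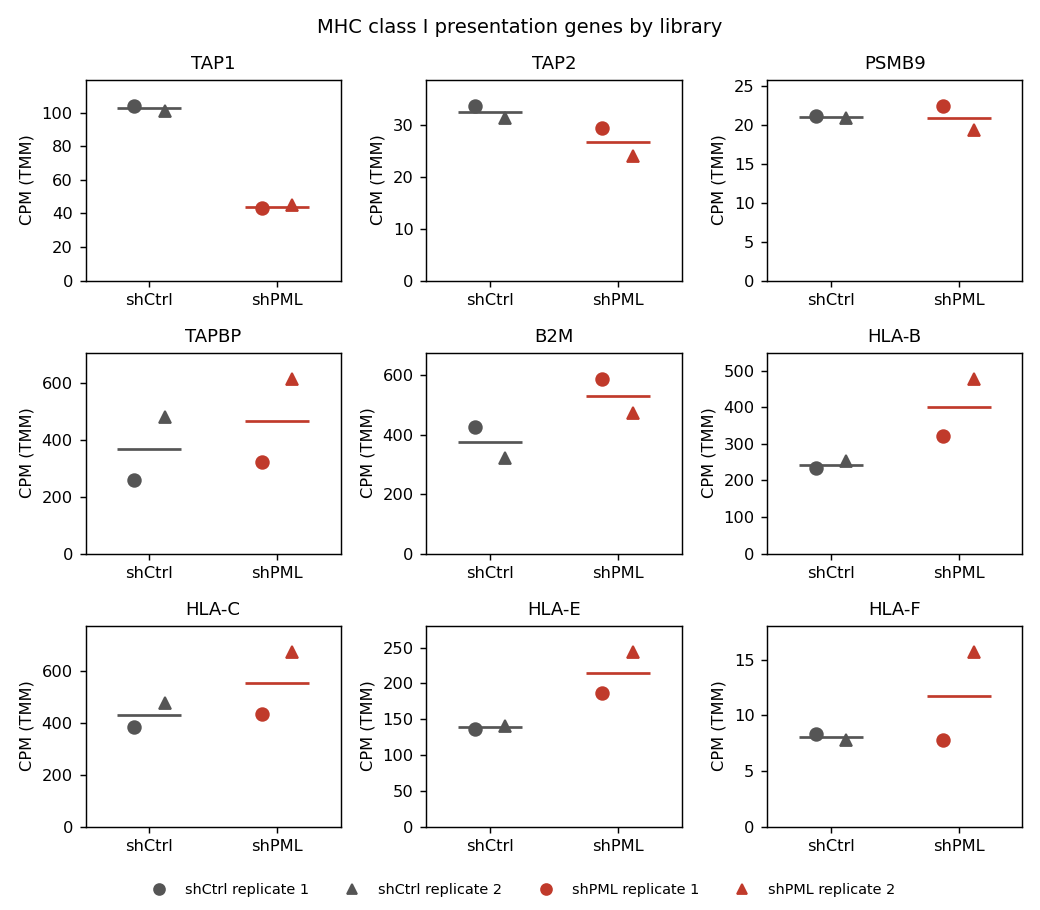
TMM-normalized CPM (vertical axes, each from 0) of the 9 genes in the 4 libraries, with circles for replicate 1, triangles for replicate 2 and a bar for the group mean of 2 libraries. TAP1 separates the groups cleanly, PSMB9 is level, TAPBP separates the replicates, and HLA-F is raised only in shPML replicate 2.

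B2M, the light chain shared by all class I molecules, was at 425 and 323 CPM in shCtrl and at 588 and 474 CPM in shPML. Both shPML libraries lay above both shCtrl libraries, by 1.38-fold within replicate 1 and 1.47-fold within replicate 2. The log2 fold change was 0.50 ± 0.21 (SE, adjusted p = 0.30, edgeR without the block), and with the block B2M rose by 0.51 ± 0.09 (SE, adjusted p = 1.5e-05), just beyond the fold threshold. Replicate 1 held hardly any leukocyte reads (marker sums of 0.111 and 0.181 CPM) and gave a log2 ratio of 0.47, against 0.55 in replicate 2. Without shPML replicate 2 the unblocked value was 0.65 (adjusted p = 0.41, edgeR), and it was 0.31 without shCtrl replicate 2 and 0.33 without shPML replicate 1, under the fold threshold.

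HLA-B and HLA-E encode a classical heavy chain and the non-classical chain that is read by NKG2 receptors of natural killer cells. HLA-B was at 233 and 252 CPM in shCtrl and at 322 and 478 CPM in shPML. HLA-E was at 137 and 141 CPM in shCtrl and at 186 and 244 CPM in shPML. In both genes the shCtrl libraries were close together, both shPML libraries were above them, and shPML replicate 2 was the highest. The log2 fold change was 0.72 ± 0.23 for HLA-B (SE, adjusted p = 0.20) and 0.63 ± 0.19 for HLA-E (SE, adjusted p = 0.18) in edgeR without the block. With the block, HLA-B rose by 0.69 ± 0.10 (SE, adjusted p = 1.0e-07) and HLA-E by 0.62 ± 0.10 (SE, adjusted p = 1.8e-06). Within replicate 1, where leukocyte markers summed to 0.181 CPM or less, the log2 ratios were 0.46 for HLA-B and 0.45 for HLA-E, and within replicate 2 they were 0.92 and 0.79. Without shPML replicate 2, the edgeR values were 0.41 (adjusted p = 0.55) and 0.43 (adjusted p = 0.52), and both missed the threshold.

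HLA-C, the other classical heavy chain of the set, was at 385 and 477 CPM in shCtrl and at 435 and 672 CPM in shPML. The groups overlapped, since shPML replicate 1 was lower than shCtrl replicate 2. Its log2 fold change was 0.36 ± 0.26 (SE, adjusted p = 0.55, edgeR) and 0.34 ± 0.10 with the block (SE, adjusted p = 0.0047), short of the fold threshold. The ratios of the replicates were 0.18 and 0.50 on the log2 scale, and without shPML replicate 2 the unblocked value was 0.01.

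HLA-F, a further non-classical heavy chain, had from 281 to 559 reads a library, the lowest counts of the set. Its level was 8.35 and 7.81 CPM in shCtrl, 7.80 CPM in the first shPML library and 15.7 CPM in the second. Of the 4 libraries only the last, with leukocyte markers, stood out, and the log2 ratios of the replicates were -0.10 and 1.01. The log2 fold change of 0.53 ± 0.36 (SE, edgeR adjusted p of 0.53, or 0.076 under the block) passed in neither fit and was -0.05 without shPML replicate 2. The part of the leukocyte reads in these values was not tested.

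**Figure D3:**
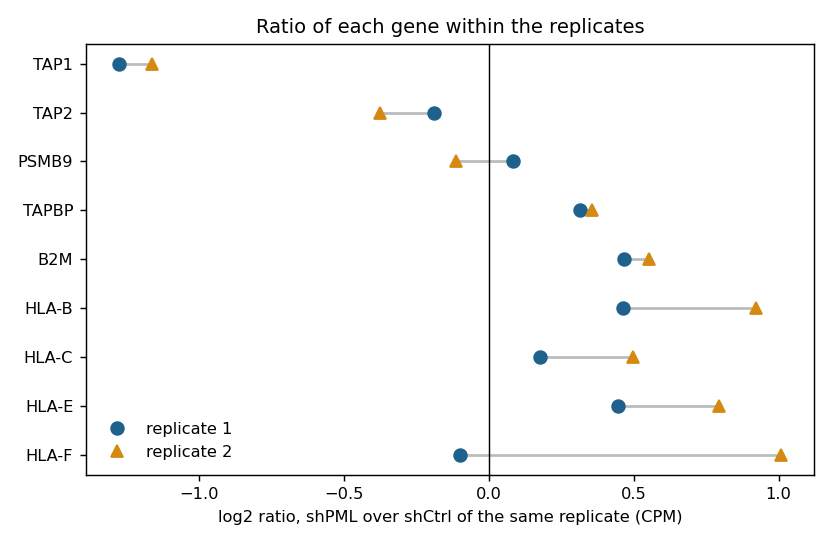
Log2 ratio of CPM in shPML over shCtrl of the same replicate (horizontal axis) for each of the 9 genes, with a circle for replicate 1, a triangle for replicate 2 and a line joining them. TAP1 lies at -1.28 and -1.16, B2M and TAPBP have nearly equal ratios, and the largest gap is that of HLA-F, from -0.10 to 1.01.

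Taking the set as a whole, 0 of the 9 genes were called in the edgeR fit without the block, where a call needed an adjusted p below 0.05 together with an absolute log2 fold change above 0.5. Of all 16516 genes tested, that fit called 0.0787% higher and 0.333% lower. Before adjustment (p under 0.05), HLA-B and HLA-E were higher, beside 7.8% of all genes, and TAP1 was lower, beside 10.1%. DESeq2 without the block called 1 of the 9 genes, TAP1, lower, beside 2.81% of its 30093 genes, and 0 higher, beside 1.81%. With the replicate block edgeR called 3 of the 9 genes higher (HLA-B, HLA-E and B2M), beside 8.57% of all genes, and 1 lower (TAP1), beside 10.5% of all genes. Both shPML libraries lay above both shCtrl libraries in HLA-B, HLA-E and B2M, as they did in 23.1% of all genes, and below them in TAP1 and TAP2, as they did in 24.9%. The median log2 fold change of the set was 0.36 without and 0.34 with the block, while that of all genes tested was 0.01 and 0.0042. Within replicate 1 the median log2 ratio was 0.18 for the set and 0.0016 for all genes, and within replicate 2 it was 0.50 and -0.0026. In replicate 1, 16.0% of all genes had a ratio at or above that of HLA-B, 16.8% at or above that of HLA-E and 15.8% at or above that of B2M. Without shPML replicate 2, edgeR without the block called 0 of the 9 genes, and before adjustment 1 was higher (B2M), beside 4.2% of all genes, and 1 lower (TAP1), beside 7.43%.

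**Figure D4:**
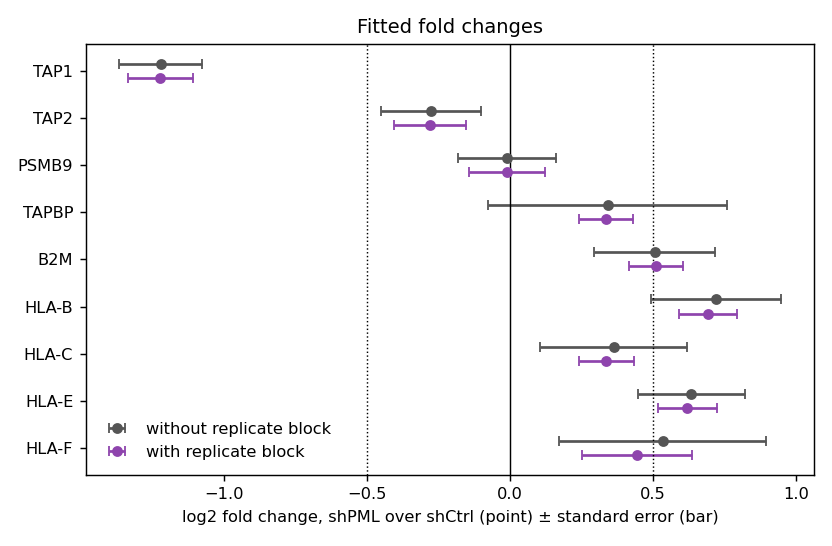
Log2 fold change of shPML over shCtrl (horizontal axis, points) with its standard error (bars) for the 9 genes, from edgeR without (grey) and with (violet) the replicate block, and with dotted lines at the fold threshold of 0.5 in each direction. The points hardly move between the fits, whereas the bar of TAPBP shrinks from 0.42 to 0.09.

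To compare genes with one another, levels were expressed per gene length as TPM, the share of a library's reads per base of gene length. In shCtrl, HLA-C was the most abundant at 739 ± 106 TPM (SD, n = 2), followed by B2M at 420 ± 84.2, HLA-B at 411 ± 18.9, TAPBP at 234 ± 98.0, HLA-E at 145 ± 1.94 and TAP1 at 92.4 ± 2.70 TPM (SD, n = 2 each). PSMB9 at 48.5 ± 0.790, TAP2 at 14.0 ± 0.853 and HLA-F at 11.0 ± 0.613 TPM (SD, n = 2 each) closed the order. The only neighbours whose libraries overlapped in shCtrl were B2M and HLA-B. In shPML, HLA-C at 961 ± 297, HLA-B at 685 ± 192 and B2M at 602 ± 88.0 TPM (SD, n = 2 each) overlapped in sequence, as did TAPBP with HLA-E and HLA-F with TAP2. TAP1, at 40.1 ± 1.59 TPM, ranked below PSMB9, at 48.6 ± 4.80 TPM (SD, n = 2 each), and their libraries did not overlap.
The balance of heavy and light chain RNA followed the experiment. HLA-B, HLA-C, HLA-E and HLA-F together amounted to 2.54 and 3.87 times B2M in shCtrl and to 2.27 and 4.21 times B2M in shPML (replicates 1 and 2). The ratio of PSMB9 to its constitutive counterpart PSMB6 was 0.121 and 0.152 in shCtrl and 0.102 and 0.128 in shPML. The groups overlapped, but within each replicate shPML was at 0.847 and 0.846 of shCtrl. PSMB8 reached 0.465 and 0.477 times the level of PSMB5, the subunit it replaces, in shCtrl and 1.23 and 1.33 times in shPML. PSMB5 fell with the block (log2 fold change -1.10, standard error 0.11, adjusted p = 1.5e-12, edgeR), and PSMB8 changed by 0.34 (adjusted p = 0.014), under the fold threshold.

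**Figure D5:**
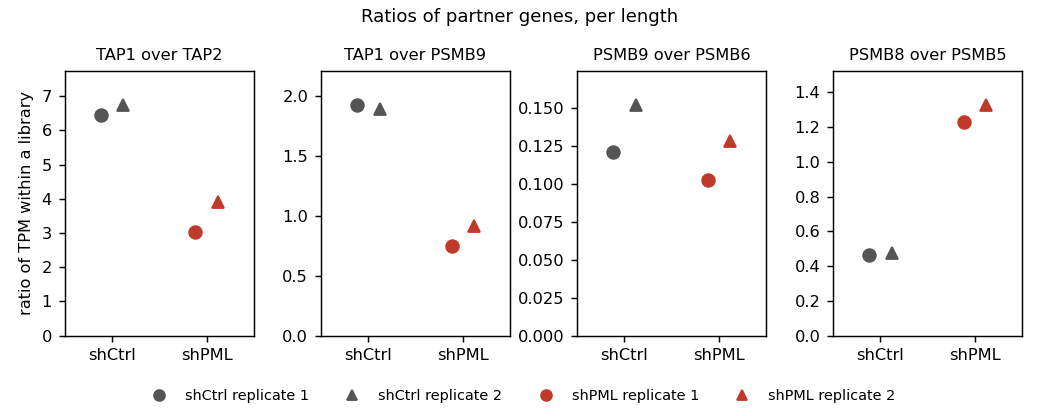
Ratios of TPM within each library (vertical axes, each from 0) for TAP1 over TAP2, TAP1 over PSMB9, PSMB9 over PSMB6 and PSMB8 over PSMB5, with circles for replicate 1 and triangles for replicate 2. The groups stand apart in the ratios with TAP1 and in PSMB8 over PSMB5, and overlap in PSMB9 over PSMB6, where shPML is the lower within each replicate.

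The remaining pathway was read from gene lists, all without a call in the unblocked fit. The smallest adjusted p of any list gene in that fit was 0.0774 (edgeR), for CANX. Before adjustment (p under 0.05), 4 of the 73 list genes tested were higher, beside 7.8% of all genes, and 5 were lower, beside 10.1%. DESeq2 without the block and without the filter on low counts called 7 of 88 list genes higher, beside 1.81% of all its genes. It called 4 lower, beside 2.81%. Those called higher were JAK1, SOCS3 and the class II genes HLA-DRB1, HLA-DRB5, HLA-DQB1, HLA-DPA1 and HLA-DPB1. These class II genes were highest in shPML replicate 2, the library with leukocyte markers. HLA-DPB1, for example, had 74 reads there and at most 2 in each other library. With the block, 1 of 8 peptide loading and trimming genes was called, CANX, the lectin chaperone of new heavy chains, which fell from 995 and 1037 CPM in shCtrl to 587 and 560 CPM in shPML (log2 fold change -0.83, adjusted p = 5.8e-11, edgeR). Of the other 5 immunoproteasome and activator genes, 0 were called, and the median log2 fold change was 0.16. At an unadjusted p under 0.05 (edgeR with the block) 2 of them were higher, beside 3137 of all 16516 genes. Among the 14 constitutive subunits of the proteasome core, PSMB5 alone was called.
NLRC5, the transactivator of class I promoters, was the only one called of 13 factors that act there, and at the edge of the fold threshold (0.50, adjusted p = 0.0010, edgeR with the block). Its level was 38.9 and 28.8 CPM in shCtrl and 47.3 and 47.9 CPM in shPML. Of 12 interferon receptor and signalling genes, 0 were called lower with the block, and SOCS3 and JAK1 were among those called higher. SOCS3, an inhibitor of cytokine signalling, was at 16.3 and 22.1 CPM in shCtrl and at 28.3 and 46.6 CPM in shPML (log2 fold change 0.93, adjusted p = 2.1e-08, edgeR), and JAK1, a receptor-associated kinase, changed by 0.55. Interferon genes themselves were close to silent, since IFNA1, IFNA2, IFNG, IFNK, IFNL1, IFNL2 and IFNL3 had 0 reads in every library, IFNB1 had 3 reads in shPML replicate 1 and IFNE had 2 reads in shCtrl replicate 1 and 7 in shPML replicate 1. A count of 0 allows a level of up to 0.0418 CPM in the deepest library and 0.109 CPM in the shallowest, and these limits cover counting error only.
Among 12 class I-like genes and ligands of NKG2D, ULBP3 and ULBP2, which are such ligands, and HFE, which controls iron uptake, fell with the block. ULBP3 was at 10.5 and 13.4 CPM in shCtrl and at 6.43 and 6.36 CPM in shPML (log2 fold change -0.89, adjusted p = 0.00010, edgeR). HFE changed by -0.59 and ULBP2 by -0.75, and RAET1L had 0 reads. FCGRT, the neonatal Fc receptor, was called higher with the block (adjusted p = 0.0035, edgeR), but it was at 0.979, 1.00 and 1.05 CPM in the other libraries and at 8.47 CPM in shPML replicate 2 alone. Of the 12 further class I loci, mostly pseudogenes, HLA-V fell from 14.1 and 13.9 CPM to 7.04 and 8.37 CPM (log2 fold change -0.87, adjusted p = 3.7e-05 with the block), HLA-H was called higher (0.69, adjusted p = 0.0015), and HLA-N, HLA-P and HLA-S had 0 reads. HLA-H was at 6.06 and 10.7 CPM in shCtrl and at 6.97 and 24.1 CPM in shPML, so its groups overlapped, and without shPML replicate 2 its value was -0.26 in edgeR without the block.
Of 15 class II genes and helpers, 5 passed the filter and 3 were called higher with the block, namely HLA-DRB1, CTSS and CD74. HLA-DRB1 was at 1.96 and 0.833 CPM in shCtrl and at 3.15 and 10.4 CPM in shPML, and CTSS at 3.16, 1.58 and 2.32 CPM in the first 3 libraries and at 24.1 CPM in shPML replicate 2. IFI30 had 0 reads in every library. HLA-DRA, which every class II positive cell expresses, had 395 reads in shPML replicate 2 and 1 or 2 reads in each other library. The class II genes called were highest in the library with leukocyte markers, and their part in the class I values was not tested.

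By the distance between gene-centred log2 CPM profiles over the 4 libraries, the genes most like TAP1 among 11975 candidates were PRRC2B (distance 0.059), PECR (0.070) and SMCO4 (0.073). Those most like PSMB9 were ZNF449 (0.011), ZCCHC10 (0.028) and AIMP2 (0.033), and those most like HLA-B were VPS37C (0.014) and GYPC (0.082). These distances rest on 4 libraries and are descriptive.
Some exons of the set are shared with other annotated genes, and the strand setting of the counting is not given in the sources used here. TAP1 shares 456 exon bases with the antisense gene PSMB8-AS1, which had from 44 to 145 reads a library, against 1239 to 5633 for TAP1. TAP2 shares 2054 of its 6165 exon bases with AL669918.1, which had 0 reads in every library. HLA-F shares 257 bases with HLA-F-AS1 (47 to 208 reads) as well as with RPL23AP1 (0 reads) and 512 with AL645939.1 (at most 2 reads), and PSMB9 shares 139 with PSMB8-AS1. HLA-B and HLA-C share 33 bases, and HLA-B shares a further 364 with the antisense gene AL671883.2, which had at most 44 reads. In the Gencode v44 transcripts, from 0% of the 100-base words of B2M to 33.9% of those of HLA-B also occur in another gene, with 0.13% for HLA-C, 0.50% for HLA-E, 14.9% for HLA-F, 8.94% for TAP1, 17.5% for TAP2, 16.0% for TAPBP and 1.17% for PSMB9. The HLA-B words are shared with DHFRP2 and a gene without a symbol, not with HLA-C. HLA genes are highly polymorphic, and the alleles of RCC4 were not analysed here, so the split of reads between HLA genes is uncertain.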

How the data were processed

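RNA from RCC4 cells with shCtrl or shPML was analysed in 4 libraries. The authors made stranded mRNA libraries and used Trimmomatic 0.39 for trimming, STAR for alignment (GRCh38) and featureCounts 1.6.4 for counts per Gencode gene (versions per the submitters' processing notes). The deposited values are raw counts of 59050 genes without normalization. Columns were matched to samples by name, and an unnumbered column was assigned to replicate 1 of its group, whose second column is numbered 2. The record states that the labels of 2 samples were swapped at first, and the corrected labels were used. The deposited gene length, in bases, served for TPM.

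Genes were filtered with filterByExpr (16516 kept), given TMM factors and compared in edgeR 4.0.16 by its quasi-likelihood test (R 4.3.3) under Benjamini-Hochberg adjustment, following the thresholds of the study (adjusted p under 0.05, log2 fold change beyond 0.5). Standard errors were derived from the fold change and the F statistic. The main fit had no block, and a fit with the replicate number as a block is given beside it. Deviations from the group means correlated between same-numbered libraries (0.546 over genes, which are no replicates). The methods describe 2 experiments, which the numbers were taken to mark. P-values measure the spread between these libraries, moderated by a variance estimate that edgeR shares across the genes tested. With the block little residual information remains per gene. The small blocked p-values therefore rest largely on that shared variance and not on the spread seen for the gene itself. The alternatives were DESeq2 1.42.0 with and without the block, RLE scaling, other filters and fold thresholds, and each library left out. Leaving out 1 library with the block leaves no residual degree of freedom, so only within-replicate ratios are given there. In the unblocked fit of 3 libraries the lone library is assumed to vary like the others. That fit also leaves a group with a single experiment, so a difference between the experiments enters its fold change.

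The genes and lists were chosen with earlier results of these data known. All 9 genes are named, with up to 2 higher and 2 lower genes a list by fold change with the block, list genes without reads, the 3 nearest profiles to TAP1, PSMB9 and HLA-B, and overlapping genes, of which some are not reported here. HFE, JAK1, CD74, PSMB6, PSMB8, IFNB1, IFNE, HLA-DRA, HLA-DRB5, HLA-DQA1, HLA-DQB1, HLA-DPA1, HLA-DPB1, DHFRP2 and the cell type markers fall outside that rule and were named after their values were seen. The fits were run on simulated counts with known changes and an experiment effect equal in both groups. That setting suits the block and held no library with added leukocyte reads, so it does not decide between the fits. Promoters came from the RefSeq table and shared words from Gencode v44 (Python 3.11.15, pandas 2.3.3).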

Additional observations from a re-analysis of the deposited data

Results flagged for a closer look

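HLA-F and PSMB9 had ratios of opposite sign in the experiments, with 1 pair of libraries in each. The log2 ratio of shPML over shCtrl was -0.0989 in replicate 1 and 1.01 in replicate 2 for HLA-F, and 0.0831 and -0.113 for PSMB9. The difference between the experiments was not tested, because the 4 libraries leave no residual for an interaction.

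Leukocyte markers, which are outside the comparison of the class I genes, summed to 149 CPM in shPML replicate 2, above the 0.111 and 0.139 CPM of the shCtrl libraries. LYZ and CD14 made up most of this sum, at 85.4 and 42.8 CPM. The source of these reads was not tested.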

How the results depend on the processing

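Without any block, 0 of the 9 genes were called higher and 0 lower by edgeR, and before adjustment 2 were higher and 1 was lower (p under 0.05). The replicate block gave 3 higher and 1 lower in edgeR and in DESeq2, DESeq2 without the block 0 and 1, no filter on low counts 1 (HLA-B) and 1 (TAP1), and a minimum of 10 counts in every library 0 and 1. Over all genes the counts of 13 higher and 55 lower became 1415 and 1735 with the replicate block, 545 and 845 in DESeq2, 998 and 1297 in DESeq2 with the block, 891 and 946 without a filter, 53 and 144 at 10 counts in every library, and 0 and 0 with RLE scaling, where 1352 and 1615 genes had an unadjusted p under 0.05 in edgeR. The pathway lists went from 0 and 0 of 73 genes to 9 and 6 with the replicate block (12.3% and 8.22%, beside 8.57% and 10.5% of all genes). DESeq2 called 7 and 4 of 88 (7.95% and 4.55%, beside 1.81% and 2.81%), and with the block 7 and 5 (7.95% and 5.68%, beside 3.32% and 4.31%). Without a filter 12 and 3 of 88 were called (13.6% and 3.41%, beside 2.96% and 3.14%). Those higher there were mostly class II genes, and all were highest in shPML replicate 2. A fold threshold of 0 or 1 changed none of the unblocked counts. With the block, dropping the threshold gave 5 of the 9 genes higher and 1 lower, with 2391 and 2600 of all genes. A threshold of 1 gave 0 higher and 1 lower, with 550 and 646 of all genes, so HLA-B, HLA-E and B2M lost their calls there. At an unadjusted p under 0.05 (edgeR with the block, any fold change) 6 of the 9 genes were higher, beside 3137 of all 16516 genes. By the same measure 2 were lower, beside 3242.

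Leaving out 1 library gave from 0 to 0 of the 9 genes in either direction, from 0 to 187 of all genes higher and from 0 to 61 lower, and from 0 to 6 pathway genes higher and 0 lower. The largest of these counts came without shPML replicate 1. The unblocked value of PSMB9 changed sign with RLE scaling (0.0031), at 10 counts in every library (0.0054), without shCtrl replicate 1 (0.014) and without shPML replicate 2 (0.092), with leave-one-out values from -0.13 to 0.092, and TAPBP without shCtrl replicate 1 (-0.026) and without shPML replicate 2 (-0.20), in a leave-one-out range of -0.20 to 0.85. HLA-F changed sign without shPML replicate 2 (-0.050) and reached 0.95 without shPML replicate 1. The other 6 genes kept their direction in all 10 refits, and TAP1 stayed between -1.25 and -1.18. Leaving out 1 library without the block leaves a group with a single experiment, so a difference between the experiments enters those fold changes. Within the replicates the log2 ratios of TAPBP were 0.31 and 0.36, both positive. What part of the sign changes this imbalance makes up was not tested. With 2 libraries a group, differences of the size of TAP2 could not be told from the spread in the unblocked edgeR fit.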
